A study of Mus musculus with 9 samples.

Results

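The genes described here are the interleukins and interleukin receptors in mouse skin cells isolated by flow sorting. Their label is melanocyte stem cell, a cell kept in the hair follicle that supplies new pigment cells. The genes were chosen by name: every gene of the table whose symbol starts with Il followed by a digit, which gave 82 of 23361 genes. By role these were 38 secreted interleukins, 35 receptor chains, 3 decoy receptors, 3 inhibitors or antagonists and 3 genes of another kind. After the filter on low counts 58 of the 82 were tested, and the other 24 are given by their fragments.

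There were 9 RNA libraries, 3 per group, and the groups are called Quiescent, Active and UVB, the last named after the ultraviolet B part of sunlight. All 3 groups shared the skin as tissue, an age of 10 weeks and a genotype written TBPT, whose letters the labels do not spell out. The labels name chemical depilation, the removal of hair that starts a new hair growth cycle, or UVB as the treatment of every sample alike, so they do not state which treatment each group had or what the Quiescent group received. They also do not say whether the libraries of a group came from separate mice, so that p-values measure only the spread between these libraries.

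The libraries held 21045070 to 35131778 fragments assigned to genes, and the 82 genes took 0.151% to 0.245% of them. The cell type label was set against marker genes, as summed CPM (counts per 1e+06 of the library total after TMM scaling). With this scaling the CPM of a library need not add up to 1e+06, so a sum is not a share of its fragments. Quiescent sums overstate that share, whereas Active and UVB sums understate it. The 10 melanocyte markers summed to 91.3 to 232 CPM in Quiescent, 8150 to 12904 in Active and 1301 to 1596 in UVB. The 9 fibroblast markers summed to 334945 to 451562 CPM in Quiescent, 4853 to 6151 in Active and 22262 to 34751 in UVB. The libraries labelled Quiescent thus had the highest fibroblast and the lowest melanocyte sums, against their label. Quiescent replicate 2 stood apart from the other Quiescent libraries in the 3 leukocyte markers, at 203 CPM against 29.4 and 10.7. The Active libraries had 8.50 to 19.7 CPM of these markers and the UVB libraries 181 to 307 CPM. Fragments of Xist, which is transcribed from the inactive X chromosome, numbered 23353 to 30356 in UVB libraries but 4 to 12 in the others, and 4 Y-linked genes together had 4106 to 5591 fragments in the Quiescent and Active libraries and at most 2 in UVB. The sex of the source and the UVB label cannot be told apart.

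Interleukins are secreted proteins by which immune cells, keratinocytes, fibroblasts and other cells of the skin signal to each other. Many of them bind a receptor built from a chain specific to the ligand and a chain shared by a family, such as the IL-1 receptor accessory protein, gp130 or the common gamma chain. The IL-1 family signals through MyD88 and IRAK kinases and is held back by antagonists and decoy receptors, whereas most other families signal through JAK kinases and STAT factors. In bulk samples, fewer cells of a type and less RNA per cell cannot be told apart.

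The promoters of 4 genes of the IL-1 receptor system are shown because 3 of them, Il1r2, Il1r1 and Il1rl2, lie in 1 cluster and had their highest levels in Quiescent, while Il1rap, which encodes the shared accessory chain, had its lowest there. Each sequence runs from 250 bases before to 50 bases after a start that RefSeq lists on build GRCm38.p6, the same assembly as mm10, in lower case with motif matches in capitals. They are Il1r2 (chr1:40085843-40086142, plus strand), Il1r1 (chr1:40224830-40225129, plus strand, the more upstream of 2 listed starts), Il1rl2 (chr1:40324339-40324638, plus strand) and Il1rap (chr16:26581455-26581754, plus strand).
Il1r2: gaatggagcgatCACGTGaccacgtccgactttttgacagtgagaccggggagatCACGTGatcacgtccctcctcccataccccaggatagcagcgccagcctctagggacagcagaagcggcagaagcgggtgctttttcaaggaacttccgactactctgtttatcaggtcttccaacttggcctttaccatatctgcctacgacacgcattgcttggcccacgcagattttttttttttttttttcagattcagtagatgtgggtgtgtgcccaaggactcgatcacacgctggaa
Il1r1: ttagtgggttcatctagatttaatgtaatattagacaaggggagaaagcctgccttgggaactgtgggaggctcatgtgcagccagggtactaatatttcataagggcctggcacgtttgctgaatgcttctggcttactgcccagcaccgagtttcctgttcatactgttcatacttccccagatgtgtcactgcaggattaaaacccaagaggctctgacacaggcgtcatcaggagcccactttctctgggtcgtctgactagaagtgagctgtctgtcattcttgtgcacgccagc
Il1rl2: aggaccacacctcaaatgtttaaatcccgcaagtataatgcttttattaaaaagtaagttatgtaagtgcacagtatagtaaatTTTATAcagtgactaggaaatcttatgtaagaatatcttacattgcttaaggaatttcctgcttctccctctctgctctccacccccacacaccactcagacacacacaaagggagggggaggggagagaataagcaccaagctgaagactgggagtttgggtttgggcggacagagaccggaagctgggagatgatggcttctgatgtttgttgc
Il1rap: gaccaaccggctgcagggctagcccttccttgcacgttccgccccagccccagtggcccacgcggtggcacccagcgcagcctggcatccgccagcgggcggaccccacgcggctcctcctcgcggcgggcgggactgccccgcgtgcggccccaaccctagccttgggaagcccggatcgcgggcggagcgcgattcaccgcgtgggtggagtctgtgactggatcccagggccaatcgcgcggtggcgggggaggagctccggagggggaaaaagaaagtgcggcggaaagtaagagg
The motifs searched on both strands were an E-box (CACGTG), the AP-1 site (TGANTCA) and the TATA box (TATAAA), and no matches in the windows shown overlap. The Il1r2 window held 2 E-boxes, the Il1rl2 window 1 TATA box on the opposite strand, and the Il1r1 and Il1rap windows none of the 3 motifs. Of 32851 listed mouse promoters, 7.15% held that E-box, 7.81% the AP-1 site and 13.6% the TATA box. The RefSeq table matched 65 of the 82 genes with 80 promoters, of which 2, 14 and 15 held these motifs in that order. The Il1rap window stood out by its composition, with 72.0% G and C against 43.7% to 51.3% in the other 3. A match describes letters only.

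Active libraries had lower levels of many of these genes than Quiescent libraries, and UVB libraries had higher levels than Active for every one that was called. Against Quiescent, 6 genes were higher in Active and 26 lower at an edgeR adjusted p under 0.05, where 29.1% of all 15078 tested genes were called higher and 29.2% lower. The 6 higher genes were Il1rap, Il1rapl1, Il12rb1, Il17a, Il17d and Il25. Against Quiescent, 16 were higher in UVB and 16 lower, where 25.8% and 23.2% of all tested genes were called. Against Active, 30 were higher in UVB, with a background of 14.8%, and 0 were lower by edgeR, with a background of 9.19%. At an unadjusted p under 0.05 edgeR had 38 higher and 1 lower, and DESeq2, limma and an edgeR fit of only the 2 groups each called 1 lower, Il10rb. For counts at an unadjusted p, here and below, the share of all tested genes was not computed. The median log2 fold change of the 58 was -0.89 for Active against Quiescent, 0.06 for UVB against Quiescent and 1.69 for UVB against Active, beside 0.007, 0.021 and 0.014 over all tested genes. The groups did not overlap in 32, 39 and 42 of the 58 genes in these 3 comparisons, where 66.2%, 57.6% and 46.7% of all tested genes did not overlap.

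The counts depended on 1 library in the UVB comparisons. Without Active replicate 2 the number higher in UVB than in Active fell to 15, and without UVB replicate 1 to 18, while the share of all tested genes called higher fell from 14.8% to 6.50% and 9.12%. The number higher in UVB than in Quiescent fell to 10 without UVB replicate 1, where the share of all tested genes fell from 25.8% to 21.0%. Without Quiescent replicate 2 the 2 comparisons with Quiescent gave 8 higher and 25 lower in Active, and 20 higher and 13 lower in UVB, beside 26.7% and 26.2%, and 25.2% and 21.2%, of all tested genes. Scaling by library size alone, without TMM factors, moved the median of all genes from 0.007 to 0.757 for Active against Quiescent and from 0.021 to 0.742 for UVB against Quiescent. With that scaling 9 of the genes were higher and 18 lower in Active, 27 higher and 8 lower in UVB against Quiescent, and 29 higher and 0 lower in UVB against Active. Of all tested genes that scaling called 57.4% higher and 14.6% lower in Active, 58.0% and 8.26% in UVB against Quiescent, and 14.2% and 10.2% in UVB against Active. Fold changes against Quiescent below are relative to the TMM scaling, and a gene whose call ended or turned without it is named as such. That naming does not cover the cell type markers, nor all of the signalling genes.

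**Figure D1:**
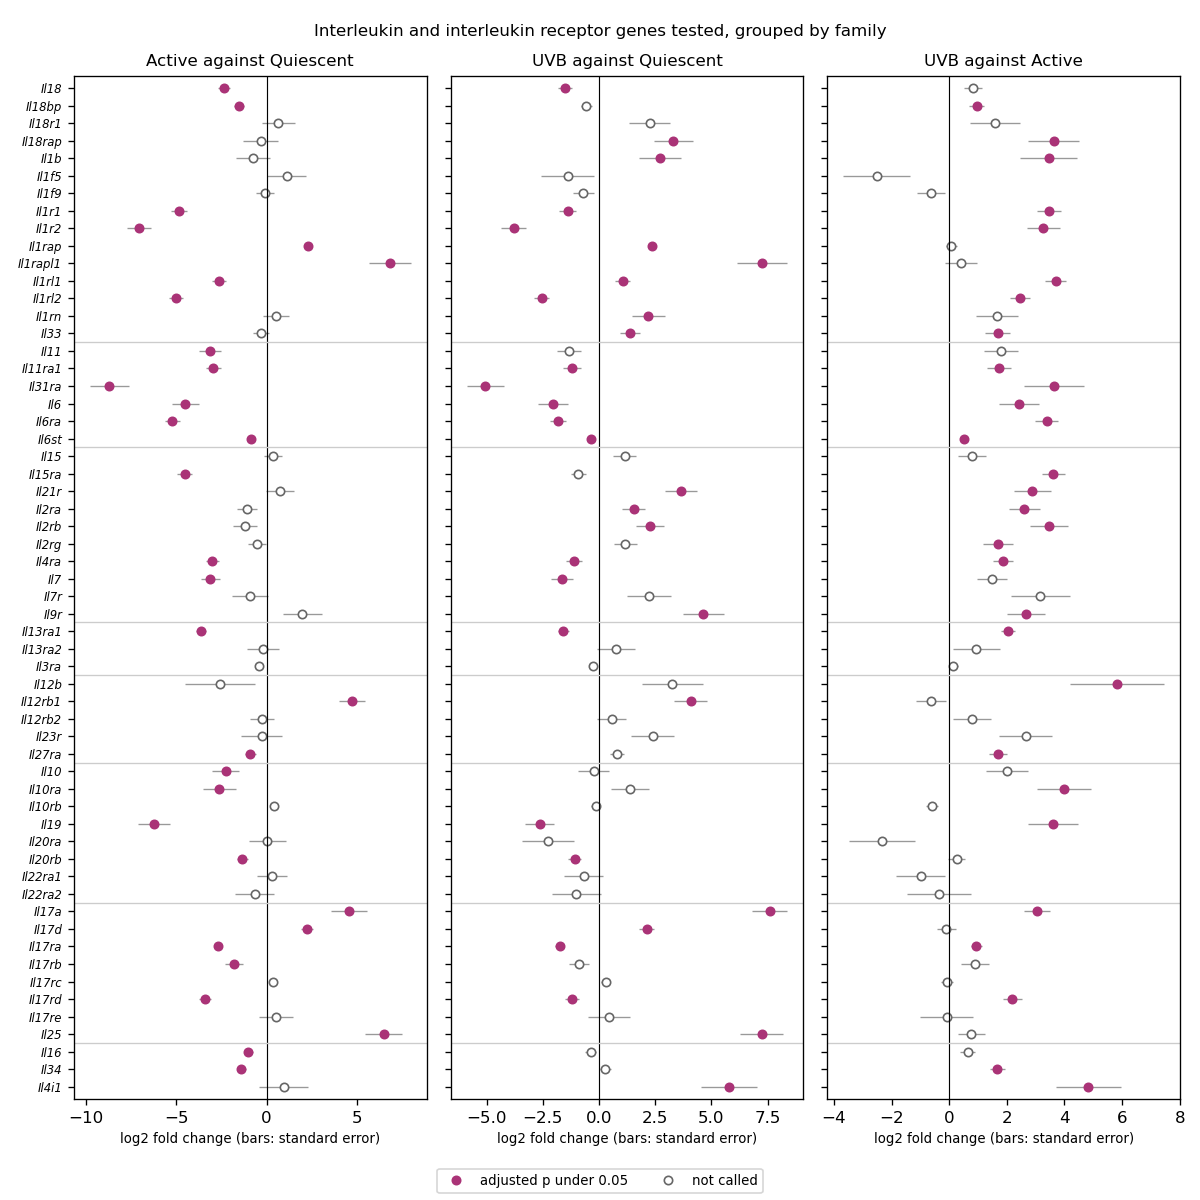
Log2 fold change (horizontal axis) of the 58 tested interleukin and interleukin receptor genes (rows, grouped by family) in the 3 comparisons, with the standard error as bars; filled points have an edgeR adjusted p under 0.05. Among the 58, 26 of 32 filled points lie below 0 for Active against Quiescent and all 30 lie above 0 for UVB against Active.

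Among the secreted interleukins, 16 of 38 had enough fragments to be tested. In Active against Quiescent 3 of the 16 were higher and 8 lower, in UVB against Quiescent 5 were higher and 4 lower, and in UVB against Active 7 were higher and 0 lower by edgeR. Of all tested genes 29.1% were higher and 29.2% lower, 25.8% and 23.2%, and 14.8% and 9.19% in these comparisons, so that for UVB against Quiescent the ligand counts were near the background. At an unadjusted p under 0.05 edgeR had 12 ligands higher and 0 lower in UVB against Active. The ligand with the highest level per length in Quiescent was Il6, at 119 FPKM (fragments scaled by gene length and library total; SD 95.7, n = 3). In UVB it was Il1b, at 69.5 FPKM (SD 6.69, n = 3).

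Il6 encodes the cytokine that drives the acute phase response, and its promoter (chr5:30012864-30013163, plus strand, GRCm38.p6) is shown because it held 1 AP-1 site, in capitals.
Il6: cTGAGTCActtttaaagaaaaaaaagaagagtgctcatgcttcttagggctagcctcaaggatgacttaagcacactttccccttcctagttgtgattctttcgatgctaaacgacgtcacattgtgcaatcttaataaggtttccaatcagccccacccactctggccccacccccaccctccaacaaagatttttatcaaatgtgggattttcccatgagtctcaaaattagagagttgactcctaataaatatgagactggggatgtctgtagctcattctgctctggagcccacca
Il6 was at 47.1, 212 and 70.6 CPM in Quiescent replicates 1, 2 and 3, at 3.18, 2.94 and 8.79 CPM in Active, and at 39.2, 26.9 and 13.5 CPM in UVB. All Active libraries lay below all UVB libraries, and these below all Quiescent libraries. Il6 was 22.2-fold lower in Active than in Quiescent (log2 fold change -4.48, SE 0.74, edgeR adjusted p = 8.6e-04). That fold was 11.9 without Quiescent replicate 2 and 35.2 without Active replicate 3. Il6 was 4.13-fold lower in UVB than in Quiescent (adjusted p = 0.030). This call ended without Quiescent replicate 2, where the fold was 2.22, without UVB replicate 2 or 3 (edgeR adjusted p from 0.078 to 0.118), and with library size alone (adjusted p = 0.096). Il6 was 5.38-fold higher in UVB than in Active (edgeR adjusted p = 0.034). That call ended without Active replicate 1 or 2 or UVB replicate 1 or 2 (adjusted p from 0.062 to 0.121), and without Active replicate 3 the fold was 8.48. Il11, another cytokine that signals through gp130, was lower in Active than in Quiescent, at 0.245 against 2.25 CPM (edgeR adjusted p = 0.002).

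Il1b encodes IL-1 beta, the inflammatory cytokine released after cleavage by caspase-1, and its promoter (chr2:129371090-129371389, minus strand, GRCm38.p6) is shown for its TATA box, in capitals.
Il1b: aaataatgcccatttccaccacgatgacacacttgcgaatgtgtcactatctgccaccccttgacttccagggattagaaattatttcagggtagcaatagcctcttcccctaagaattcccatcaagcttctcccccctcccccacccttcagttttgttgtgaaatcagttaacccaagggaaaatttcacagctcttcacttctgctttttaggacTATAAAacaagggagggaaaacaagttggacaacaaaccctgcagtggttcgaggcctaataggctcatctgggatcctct
Il1b was at 4.65, 32.7 and 0.768 CPM in Quiescent, at 9.07, 8.30 and 5.27 CPM in Active, and at 91.8, 77.7 and 78.0 CPM in UVB. The UVB libraries were above all others, and Quiescent replicate 2 was the next highest. Il1b was 10.9-fold higher in UVB than in Active (log2 fold change 3.45, SE 0.98, edgeR adjusted p = 0.034) and 6.54-fold higher than in Quiescent (adjusted p = 0.041). The first call ended without any 1 Active or UVB library (edgeR adjusted p from 0.056 to 0.109). The second ended without any 1 Active or UVB library or Quiescent replicate 1 (edgeR adjusted p from 0.055 to 0.114) and in a fit of only the 2 groups (adjusted p = 0.083), and without Quiescent replicate 2 the fold was 29.1. The difference between Active and Quiescent was not called (edgeR adjusted p = 0.516), and its direction turned without Quiescent replicate 2. DESeq2 called Il1b in no comparison. The 9 listed macrophage and dendritic cell markers summed to 450, 3538 and 186 CPM in Quiescent replicates 1, 2 and 3, to 95.5 to 217 CPM in Active and to 2107 to 3614 CPM in UVB, so that the libraries with the most Il1b were also those with the most of these markers. Their part in the Il1b result was not tested. Antisense fragments of Il1bos, which overlaps Il1b on the opposite strand, cannot be told apart here. Il1a, which encodes the other IL-1 agonist, was near the limit of detection, with 18, 27 and 34 fragments over the 3 libraries of Quiescent, Active and UVB, and was not tested.

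Il33 encodes an alarmin of skin and barrier cells. It was at 18.6, 13.6 and 5.55 CPM in Quiescent, at 7.32, 8.20 and 14.9 CPM in Active, and at 31.1, 40.8 and 26.4 CPM in UVB. The UVB libraries were above all others, whereas Quiescent and Active overlapped. Il33 was 2.59-fold higher in UVB than in Quiescent (log2 fold change 1.37, SE 0.43, edgeR adjusted p = 0.027) and 3.24-fold higher than in Active (adjusted p = 0.025). The first call ended without Quiescent replicate 2 or UVB replicate 1 or 2 (edgeR adjusted p from 0.054 to 0.083), and the second without Active replicate 1 or 2 or UVB replicate 1 or 2 (adjusted p from 0.060 to 0.095). With the replicate number as a block in the fit, Il33 was called in no comparison.

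Il18, an IL-1 family cytokine that drives interferon gamma, was instead highest in Quiescent. It was at 8.17, 9.12 and 13.1 CPM in Quiescent, at 2.68, 1.34 and 1.88 CPM in Active, and at 2.93, 3.22 and 4.29 CPM in UVB. The Quiescent libraries were above all others. Il18 was 5.12-fold lower in Active (log2 fold change -2.36, SE 0.33, edgeR adjusted p = 3.1e-04) and 2.91-fold lower in UVB (adjusted p = 0.004) than in Quiescent. All UVB libraries lay above all Active libraries, but the difference between UVB and Active was not called (edgeR adjusted p = 0.093).

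Il34 encodes a ligand of the CSF-1 receptor that maintains Langerhans cells of the epidermis. It was at 24.9, 18.2 and 10.9 CPM in Quiescent, at 6.79, 6.78 and 7.03 CPM in Active, and at 21.6, 20.7 and 23.4 CPM in UVB. The Active libraries were the lowest 3. Il34 was 2.63-fold lower in Active than in Quiescent (log2 fold change -1.39, SE 0.26, edgeR adjusted p = 0.002), a call that ended with library size alone (adjusted p = 0.061). It was 3.19-fold higher in UVB than in Active (log2 fold change 1.67, SE 0.26, edgeR adjusted p = 0.004), a call kept without any 1 library. Il16, which encodes a chemoattractant for CD4 cells, ran from 41.6 to 60.2 CPM in Quiescent, 23.2 to 31.5 CPM in Active and 31.0 to 56.4 CPM in UVB. It was 2.03-fold lower in Active than in Quiescent (edgeR adjusted p = 0.007), and this call too ended with library size alone (adjusted p = 0.375). Il34 and Il16 both overlap exons of genes on the opposite strand.

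The IL-17 family held the only 3 ligands that were higher in Active than in Quiescent. Il17d was at 2.66, 2.74 and 1.48 CPM in Quiescent, at 6.48, 11.4 and 14.4 CPM in Active, and at 10.5, 9.59 and 10.0 CPM in UVB. Both other groups lay above all Quiescent libraries. Il17d was 4.67-fold higher in Active (log2 fold change 2.22, SE 0.34, edgeR adjusted p = 5.4e-04) and 4.36-fold higher in UVB (adjusted p = 0.001) than in Quiescent, both calls kept without any 1 library, and the difference between UVB and Active was not called (adjusted p = 0.843). Il17a, the cytokine of Th17 and gamma delta T cells, and Il25 had 0 fragments in every Quiescent library. With Quiescent set at the limit of 3 fragments over the group, the mean of Il25 was 8.36-fold higher in Active and 14.3-fold higher in UVB. That of Il17a was 2.14-fold and 18.2-fold higher, and its Active mean rested on 9 fragments. These folds leave out the counting error of the higher group. The Il17a call in Active ended by limma on log2(FPKM + 1) (adjusted p = 0.095). Both stayed low, at most 1.01 CPM in any library, and Il17a was 8.22-fold higher in UVB than in Active (edgeR adjusted p = 0.006).

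Other ligands that were tested had low levels. Il7, a survival factor of lymphocytes, and Il19, a cytokine of the IL-10 family, were called lower in Active than in Quiescent, the former from 3.33 to 0.372 CPM and the latter from 237 to 4 fragments over the group, and both were also called lower in UVB. The UVB call of Il7 (edgeR adjusted p = 0.023) ended without Quiescent replicate 1 or 2 or UVB replicate 1 or 2 (adjusted p from 0.052 to 0.084) and with library size alone (adjusted p = 0.136). Il10, an inhibitory cytokine, was called lower in Active than in Quiescent (edgeR adjusted p = 0.027), a call that ended without Quiescent replicate 2 or any 1 Active library (adjusted p from 0.064 to 0.151), with library size alone (adjusted p = 0.093), by limma with either pseudocount, in a fit of only the 2 groups and with the replicate block (adjusted p from 0.053 to 0.095). In UVB against Active Il10 was not called (edgeR adjusted p = 0.077), but DESeq2 called it higher (adjusted p = 0.036), as did a fit of only the 2 groups (adjusted p = 0.009). Quiescent replicate 2 held 56 of the 80 Quiescent fragments of Il10. Il19 had 58 fragments over UVB, and its call as higher in UVB than in Active (edgeR adjusted p = 0.021) ended without Active replicate 1 or 2 or UVB replicate 1 or 3 (adjusted p from 0.050 to 0.080). Il15, which encodes a cytokine of natural killer and memory T cells, was called in no comparison by edgeR with TMM scaling, but was called higher in UVB than in Quiescent with library size alone (adjusted p = 0.014) and without Quiescent replicate 2 (edgeR adjusted p = 0.018).

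The ligands that were not tested, 22 in number, had at most 41 fragments in any library. Il3 and Il9 had 0 fragments in all 9 libraries, which allows up to 3 fragments over each group. Il13, a type 2 cytokine, had 0 fragments over Quiescent, 6 over Active and 55 over UVB, of which 41 were in UVB replicate 1. Il4 had 5, 1 and 12 fragments over the 3 groups, and Il12a, a subunit of IL-12, had 70, 0 and 13. Il2, Il21 and Il31 had at most 15 fragments in all. Some were called by tools that keep low counts. Il12a was called lower in Active and in UVB than in Quiescent by DESeq2 (adjusted p = 6.1e-06 and 0.014) and by edgeR with no filter (adjusted p = 0.003 and 0.036), and higher in UVB than in Active by DESeq2 (adjusted p = 0.024). Il13 was called higher in UVB than in Quiescent by both (adjusted p = 0.004 and 0.021), as was Il17f (adjusted p = 0.014 and 0.031), with 0, 14 and 27 fragments over the 3 groups. In Active against Quiescent, Il17f was called higher by DESeq2 (adjusted p = 0.046) and Il17b lower by edgeR with no filter (adjusted p = 0.034).

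Of the 34 receptor chains tested, Active had 2 above and 16 below Quiescent, 8 were higher and 11 lower in UVB than in Quiescent, and 20 were higher and 0 lower by edgeR in UVB than in Active. The shares of all tested genes were 29.1% higher and 29.2% lower, 25.8% and 23.2%, and 14.8% and 9.19%, so that the 8 higher in UVB than in Quiescent were near the background. At an unadjusted p under 0.05 edgeR had 22 receptor chains higher and 1 lower in UVB against Active. In the IL-1 receptor system Il1r2, Il1r1, Il1rl2, Il1rl1, Il18r1 and Il18rap follow each other on chromosome 1 between positions 40084692 and 40551707 (mm10), and Il1rap lies on chromosome 16 (26581509 to 26730128).

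Il1r1 encodes the signalling receptor for IL-1. It was at 167, 146 and 194 CPM in Quiescent, at 8.32, 5.15 and 3.88 CPM in Active, and at 50.7, 39.1 and 102 CPM in UVB. The 3 groups did not overlap, with Quiescent highest and Active lowest. Il1r1 was 29.0-fold lower in Active than in Quiescent (log2 fold change -4.86, SE 0.44, edgeR adjusted p = 3.0e-05) and 11.0-fold higher in UVB than in Active (log2 fold change 3.46, SE 0.41, adjusted p = 0.001), both kept without any 1 library. It was 2.64-fold lower in UVB than in Quiescent (edgeR adjusted p = 0.013), a call that ended without UVB replicate 1 (adjusted p = 0.053) and with library size alone (adjusted p = 0.137).

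Il1r2 encodes a decoy receptor that binds IL-1 without signalling. It was at 578, 571 and 921 CPM in Quiescent, at 4.83, 5.66 and 4.91 CPM in Active, and at 37.3, 16.5 and 93.5 CPM in UVB. It had the highest level per length of all 82 genes in Quiescent, 581 FPKM (SD 170, n = 3), above 99.3% of the genes in the table. Il1r2 was 134-fold lower in Active (log2 fold change -7.07, SE 0.67, edgeR adjusted p = 3.8e-05) and 14.0-fold lower in UVB (log2 fold change -3.81, SE 0.57, adjusted p = 7.4e-04) than in Quiescent. UVB was 9.57-fold above Active (edgeR adjusted p = 0.006). Without UVB replicate 3, the highest UVB library, these UVB folds were 25.6 and 5.25. The 2 other decoy receptors, Il13ra2 and Il22ra2, were at most 1.29 CPM in any library and were called in no comparison.

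Il1rl2, the receptor for IL-36, was at 109, 103 and 146 CPM in Quiescent, at 3.80, 3.92 and 3.31 CPM in Active, and at 15.9, 12.6 and 32.1 CPM in UVB. The groups were again apart in the same order. Il1rl2 was 32.3-fold lower in Active (log2 fold change -5.01, SE 0.37, edgeR adjusted p = 1.3e-05) and 5.89-fold lower in UVB (adjusted p = 3.3e-04) than in Quiescent, and 5.49-fold higher in UVB than in Active (adjusted p = 0.002). All 3 calls were kept without any 1 library. Of its IL-36 family ligands Il1f6 and Il1f8 were not tested, Il1f9 was called in no comparison, and neither was the antagonist Il1f5.

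Il1rl1 encodes the receptor for IL-33, known as ST2 on mast cells and type 2 lymphocytes. It was at 5.86, 6.14 and 3.66 CPM in Quiescent, at 1.18, 0.544 and 0.777 CPM in Active, and at 7.75, 12.7 and 12.2 CPM in UVB. Here the UVB libraries, not the Quiescent ones, were the highest. Il1rl1 was 6.20-fold lower in Active than in Quiescent (log2 fold change -2.63, SE 0.37, edgeR adjusted p = 3.2e-04) and 12.9-fold higher in UVB than in Active (log2 fold change 3.69, SE 0.38, adjusted p = 7.8e-04). It was 2.08-fold higher in UVB than in Quiescent (edgeR adjusted p = 0.028), a call that ended without Quiescent replicate 1 or 3 or UVB replicate 2 or 3 (adjusted p from 0.051 to 0.089). That call also ended by limma with either pseudocount (adjusted p = 0.063 and 0.104) and with the replicate block (edgeR adjusted p = 0.054). The 8 mast cell markers summed to 3.84 to 12.1 CPM in Quiescent, 6.09 to 12.2 in Active and 61.7 to 118 in UVB, and Tpsab1 and Fcer1a were at 0 in Quiescent. Their part in the Il1rl1 result was not tested.

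The IL-18 receptor chains at the far end of the cluster were low in Quiescent and Active, with Il18rap at most 0.235 CPM there and at 3.03, 0.890 and 0.979 CPM in UVB. Il18rap was 9.75-fold higher in UVB than in Quiescent (edgeR adjusted p = 0.013) and 12.3-fold higher than in Active (adjusted p = 0.020). Both calls ended without UVB replicate 1 (edgeR adjusted p = 0.056 and 0.071), with folds of 5.61 and 7.02, and the second also without Active replicate 3 (adjusted p = 0.054). Without Active replicate 1 the second fold was 19.5. Il18r1 was called in none of the 3 comparisons by edgeR with TMM scaling, but was called higher in UVB than in Quiescent by DESeq2 (adjusted p = 0.026), with library size alone (adjusted p = 0.021) and without Quiescent replicate 2 (edgeR adjusted p = 0.048). Along the cluster, Il1r2, Il1r1 and Il1rl2 were called lower in UVB than in Quiescent, and Il1rl1 and Il18rap higher.

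**Figure D2:**
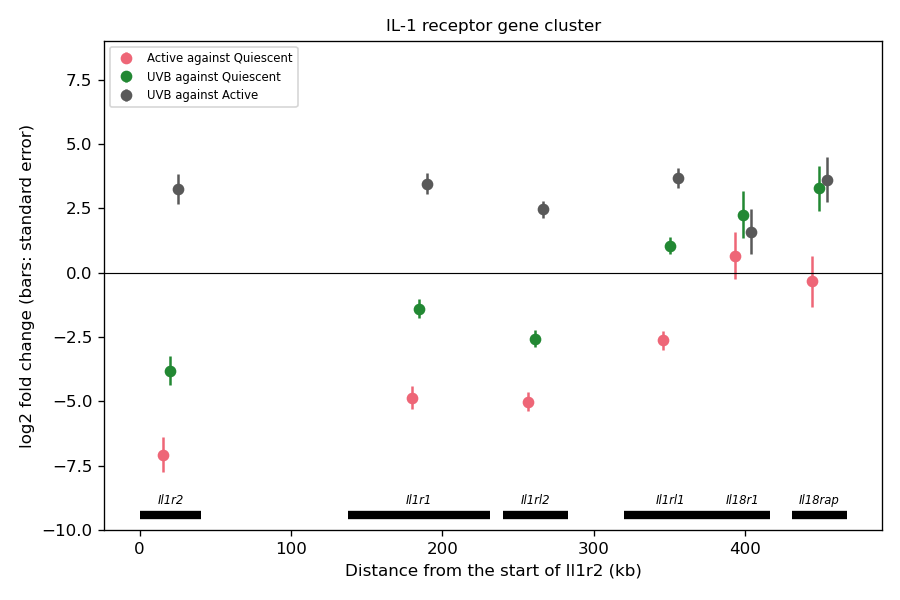
Log2 fold change (vertical axis, bars are standard errors) of the 6 receptor genes of the chromosome 1 cluster against distance from the start of Il1r2 in kb, with black bars for the genes. For Active against Quiescent the first 4 genes lie between -2.63 and -7.07 and the last 2 were not called, while all points for UVB against Active lie above 0.

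Il1rap, the accessory chain that IL-1, IL-33 and IL-36 receptors need to signal, moved the other way. It was at 118, 126 and 159 CPM in Quiescent, at 599, 629 and 731 CPM in Active, and at 701, 825 and 539 CPM in UVB. All libraries of Active and UVB lay above all of Quiescent, and Active and UVB overlapped. Il1rap was 4.86-fold higher in Active (log2 fold change 2.28, SE 0.19, edgeR adjusted p = 2.3e-05) and 5.12-fold higher in UVB (log2 fold change 2.36, SE 0.19, adjusted p = 4.1e-05) than in Quiescent, and 1.05-fold higher in UVB than in Active (adjusted p = 0.798). Both calls were kept without any 1 library. Per length it was the most abundant of the 82 genes in Active (147 FPKM, SD 14.1) and in UVB (153 FPKM, SD 35.2), and the eighth in Quiescent (30.7 FPKM, SD 5.06, n = 3 in each). Its UVB level relative to Active turned to slightly lower without UVB replicate 2, again not called. Its exons overlap those of Gm20319 on the opposite strand. Il1rapl1, a relative of Il1rap found at synapses, had 0 fragments in Quiescent and no more than 0.945 CPM in any library. With Quiescent set at the limit of 3 fragments over the group, its mean was 10.7-fold higher in Active and 14.3-fold higher in UVB.

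**Figure D3:**
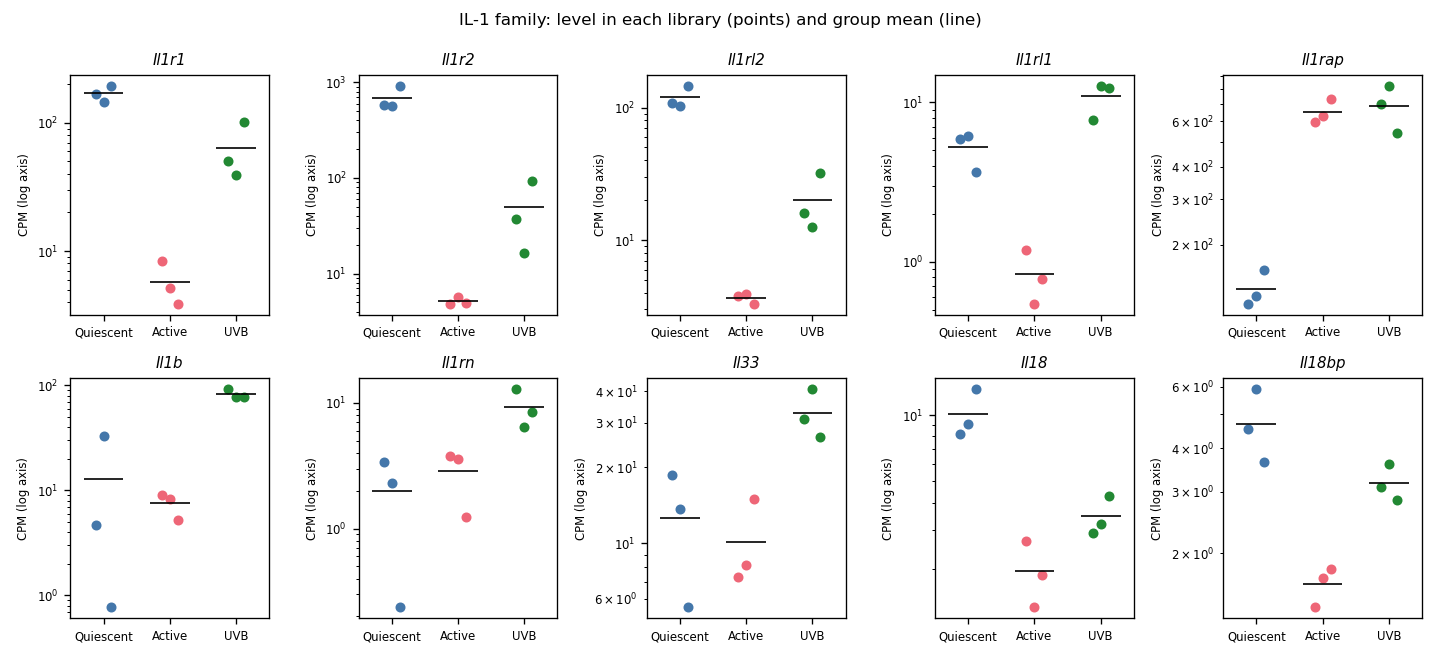
Level of 10 IL-1 family genes (vertical axes, CPM on a log scale) in each library (points) of the 3 groups, with the group mean as a line. Il1r1, Il1r2 and Il1rl2 are highest in Quiescent and lowest in Active, Il1rap is lowest in Quiescent (118 to 159 CPM), and Il1b, Il1rn and Il33 are highest in UVB.

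The 3 inhibitors of the IL-1 family did not share a pattern. Il1rn, which encodes the IL-1 receptor antagonist, was at 3.40, 2.32 and 0.236 CPM in Quiescent, at 3.80, 3.59 and 1.23 CPM in Active, and at 12.8, 6.37 and 8.44 CPM in UVB. The UVB libraries were the highest 3. Il1rn was 4.55-fold higher in UVB than in Quiescent (log2 fold change 2.19, SE 0.75, edgeR adjusted p = 0.039). This call ended without Quiescent replicate 2, Active replicate 1 or 2 or any 1 UVB library (edgeR adjusted p from 0.052 to 0.113) and in a fit of only the 2 groups (adjusted p = 0.057), and the fold was 7.17 without Quiescent replicate 1. Against Active the difference was not called (edgeR adjusted p = 0.129). Il18bp, which encodes a secreted protein that neutralises IL-18, ran from 3.66 to 5.90 CPM in Quiescent, had a mean of 1.64 CPM (SD 0.207, n = 3) in Active and ran from 2.84 to 3.60 CPM in UVB. It was 2.87-fold lower in Active than in Quiescent (edgeR adjusted p = 0.001) and 1.94-fold higher in UVB than in Active (adjusted p = 0.031), the latter call ending without any 1 Active library or UVB replicate 1 or 2 (adjusted p from 0.067 to 0.107). Il18bp overlaps Numa1 on the opposite strand.

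The receptors of the IL-6 family signal through gp130, encoded by Il6st. All 6 tested genes of this family, ligands included, were lower in Active than in Quiescent, 5 were lower in UVB than in Quiescent, and 5 were higher in UVB than in Active, where 29.2%, 23.2% and 14.8% of all tested genes were called in these directions. Il6ra, the IL-6 binding chain, was at 53.1, 74.7 and 56.0 CPM in Quiescent, at 2.12, 1.52 and 1.23 CPM in Active, and at 14.6, 9.73 and 26.9 CPM in UVB. The 3 groups did not overlap. Il6ra was 37.4-fold lower in Active (log2 fold change -5.22, SE 0.42, edgeR adjusted p = 1.8e-05) and 3.59-fold lower in UVB (adjusted p = 0.003) than in Quiescent, and 10.4-fold higher in UVB than in Active (log2 fold change 3.38, SE 0.40, adjusted p = 0.001). All 3 calls were kept without any 1 library. Il6ra overlaps Gm42809 on the opposite strand.

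Il6st was at 580, 604 and 674 CPM in Quiescent, at 310, 335 and 368 CPM in Active, and at 460, 476 and 507 CPM in UVB. The groups were apart, but by far less than for Il6ra. Il6st was 1.83-fold lower in Active than in Quiescent (log2 fold change -0.87, SE 0.12, edgeR adjusted p = 2.4e-04), a call that ended with library size alone (adjusted p = 0.283). It was 1.29-fold lower in UVB than in Quiescent (edgeR adjusted p = 0.028). With library size alone that difference turned to a log2 fold change of 0.36, called higher (edgeR adjusted p = 0.010), and the call ended without Quiescent replicate 3, Active replicate 2 or UVB replicate 1 or 2 (adjusted p from 0.052 to 0.103), with no filter (adjusted p = 0.051) and in a fit of only the 2 groups (adjusted p = 0.066). Il6st was 1.42-fold higher in UVB than in Active (edgeR adjusted p = 0.016), a call that ended without Active replicate 1 or 2 (adjusted p = 0.069 and 0.071).

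Il31ra encodes the receptor chain for IL-31, the itch cytokine, and lies next to Il6st on chromosome 13 (112521931 to 112580732, against 112464070 to 112506860 for Il6st). It was at 18.4, 43.9 and 167 CPM in Quiescent, at 0.187, 0.0725 and 0.286 CPM in Active, and at 2.24, 1.20 and 3.38 CPM in UVB. The groups did not overlap, and Quiescent replicate 3 was far above the other Quiescent libraries. Il31ra was 415-fold lower in Active (log2 fold change -8.70, SE 1.07, edgeR adjusted p = 1.6e-04) and 33.5-fold lower in UVB (adjusted p = 0.001) than in Quiescent. Without Quiescent replicate 3 these folds were 169 and 13.7. Il31ra was 12.4-fold higher in UVB than in Active (edgeR adjusted p = 0.037), a call that ended without any 1 Active library or UVB replicate 1 or 3 (adjusted p from 0.075 to 0.124) and by limma on log2(FPKM + 1) (adjusted p = 0.496). Il31ra shares exon positions with Gm3226 on its own strand.

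Il11ra1, the IL-11 receptor, was at 180, 149 and 150 CPM in Quiescent, at 25.5, 18.6 and 18.4 CPM in Active, and at 47.7, 35.7 and 124 CPM in UVB. Its values are uncertain, since near-identical copies of this gene exist and its exons overlap Ccl27a on the opposite strand. It was 7.65-fold lower in Active than in Quiescent (log2 fold change -2.94, SE 0.43, edgeR adjusted p = 4.5e-04). It was 2.31-fold lower in UVB than in Quiescent (edgeR adjusted p = 0.036), where the call ended without any 1 Quiescent library, Active replicate 2 or UVB replicate 1 or 2 (adjusted p from 0.052 to 0.117), with library size alone (adjusted p = 0.317) and in a fit of only the 2 groups (adjusted p = 0.058). It was 3.32-fold higher in UVB than in Active (edgeR adjusted p = 0.020), where the call ended without Active replicate 2 or 3 (adjusted p = 0.079 and 0.061). Without UVB replicate 3 UVB was 3.82-fold lower than Quiescent and 2.0-fold higher than Active.

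The type 2 receptor chains Il4ra and Il13ra1, which together bind IL-4 and IL-13, were both highest in Quiescent. Il13ra1 was at 133, 132 and 151 CPM in Quiescent, at 13.7, 9.28 and 10.5 CPM in Active, and at 43.0, 32.3 and 62.9 CPM in UVB. The groups did not overlap. Il13ra1 was 12.4-fold lower in Active (log2 fold change -3.63, SE 0.26, edgeR adjusted p = 1.2e-05) and 3.01-fold lower in UVB (adjusted p = 7.7e-04) than in Quiescent, and 4.11-fold higher in UVB than in Active (adjusted p = 0.001), all kept without any 1 library. Il4ra was at 56.8, 89.8 and 148 CPM in Quiescent, at 15.0, 10.7 and 11.1 CPM in Active, and at 46.7, 33.0 and 56.2 CPM in UVB. It was 7.99-fold lower in Active than in Quiescent (log2 fold change -3.00, SE 0.36, edgeR adjusted p = 1.4e-04) and 3.69-fold higher in UVB than in Active (adjusted p = 0.007). Its 2.17-fold lower level in UVB than in Quiescent (edgeR adjusted p = 0.023) was no longer called without Quiescent replicate 3 or UVB replicate 1 or 2 (adjusted p from 0.060 to 0.079) or with library size alone (adjusted p = 0.320). Il4ra overlaps Gm44876 on the opposite strand.

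Il15ra, the chain that presents IL-15 to neighbouring cells, was at 24.7, 20.9 and 16.9 CPM in Quiescent, at 1.15, 0.870 and 0.654 CPM in Active, and at 9.86, 6.30 and 16.9 CPM in UVB. Active lay below both other groups. Il15ra was 23.1-fold lower in Active than in Quiescent (log2 fold change -4.53, SE 0.41, edgeR adjusted p = 3.3e-05) and 12.2-fold higher in UVB than in Active (log2 fold change 3.61, SE 0.40, adjusted p = 0.001), both kept without any 1 library. The difference between UVB and Quiescent was not called with TMM scaling (edgeR adjusted p = 0.055). Il15ra was called lower in UVB with RLE factors (edgeR adjusted p = 0.044), by DESeq2 (adjusted p = 0.022) and by limma with either pseudocount (adjusted p = 0.020 and 0.032). That was also so without UVB replicate 3 (edgeR adjusted p = 0.007). Il15ra lies next to Il2ra on chromosome 2 (11705172 to 11733985, against 11642792 to 11693194).

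Among the IL-17 receptor chains, Il17ra, the shared chain, and Il17rd were lower in Active and in UVB than in Quiescent. Il17ra was at 86.1, 103 and 80.7 CPM in Quiescent, at 13.8, 11.5 and 16.3 CPM in Active, and at 28.7, 20.0 and 31.1 CPM in UVB. It was 6.48-fold lower in Active (log2 fold change -2.70, SE 0.20, edgeR adjusted p = 1.4e-05) and 3.37-fold lower in UVB (adjusted p = 1.7e-04) than in Quiescent. It was 1.92-fold higher in UVB than in Active (edgeR adjusted p = 0.011), a call that ended without Active replicate 2 (adjusted p = 0.051). Il17rd, which can also restrain fibroblast growth factor signalling, ran from 40.6 to 47.0 CPM in Quiescent, 3.55 to 4.64 CPM in Active and 10.9 to 29.6 CPM in UVB. It was 10.5-fold lower in Active than in Quiescent (edgeR adjusted p = 5.3e-05), 4.57-fold higher in UVB than in Active (adjusted p = 0.003), and 2.30-fold lower in UVB than in Quiescent (adjusted p = 0.012), the last call ending with library size alone (adjusted p = 0.200). Il17rc, the partner of Il17ra, was at 25.2 to 44.6 CPM over all libraries and was called in no comparison with TMM scaling, but higher than Quiescent in both other groups with library size alone (adjusted p = 0.001 in Active and 0.002 in UVB) and without Quiescent replicate 1 (edgeR adjusted p = 0.003 and 0.007). Il17rb, the IL-25 receptor, was also lower in Active. The Il17rb call in Active against Quiescent (0.251 against 0.886 CPM, edgeR adjusted p = 0.011) ended with library size alone (adjusted p = 0.070).

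Il20rb, a chain of the receptors for IL-19, IL-20 and IL-24, was at 15.9, 12.7 and 11.4 CPM in Quiescent, at 5.70, 4.86 and 5.15 CPM in Active, and at 7.37, 3.56 and 7.83 CPM in UVB. Quiescent lay above both other groups. It was 2.55-fold lower in Active (edgeR adjusted p = 0.004) and 2.13-fold lower in UVB (adjusted p = 0.014) than in Quiescent, and both calls ended with library size alone (adjusted p = 0.102 and 0.294). Il10rb, the shared second chain of this family, and Il3ra, the IL-3 receptor chain, were called in no comparison by edgeR with TMM scaling, at group means of 41.7 to 63.3 CPM and 27.0 to 35.8 CPM. Il10rb was called lower in UVB than in Active by DESeq2, limma and a fit of only the 2 groups (adjusted p from 0.030 to 0.047) and without Quiescent replicate 2 or UVB replicate 3 (edgeR adjusted p = 0.045 and 0.023). It was called higher in Active than in Quiescent with library size alone (edgeR adjusted p = 0.002) and without the same libraries (adjusted p = 0.030 and 0.047). Il3ra was called lower in Active than in Quiescent by DESeq2, limma with either pseudocount, RLE factors, a filter of 50 counts and the replicate block (adjusted p from 0.038 to 0.046) and without Quiescent replicate 2 or Active replicate 3 (edgeR adjusted p = 0.034 and 0.032). With library size alone Il3ra turned to a called higher level in UVB than in Quiescent (edgeR adjusted p = 0.021). Il10rb was the third most abundant of the 82 genes per length in Active, at 36.8 FPKM (SD 2.78, n = 3).

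**Figure D4:**
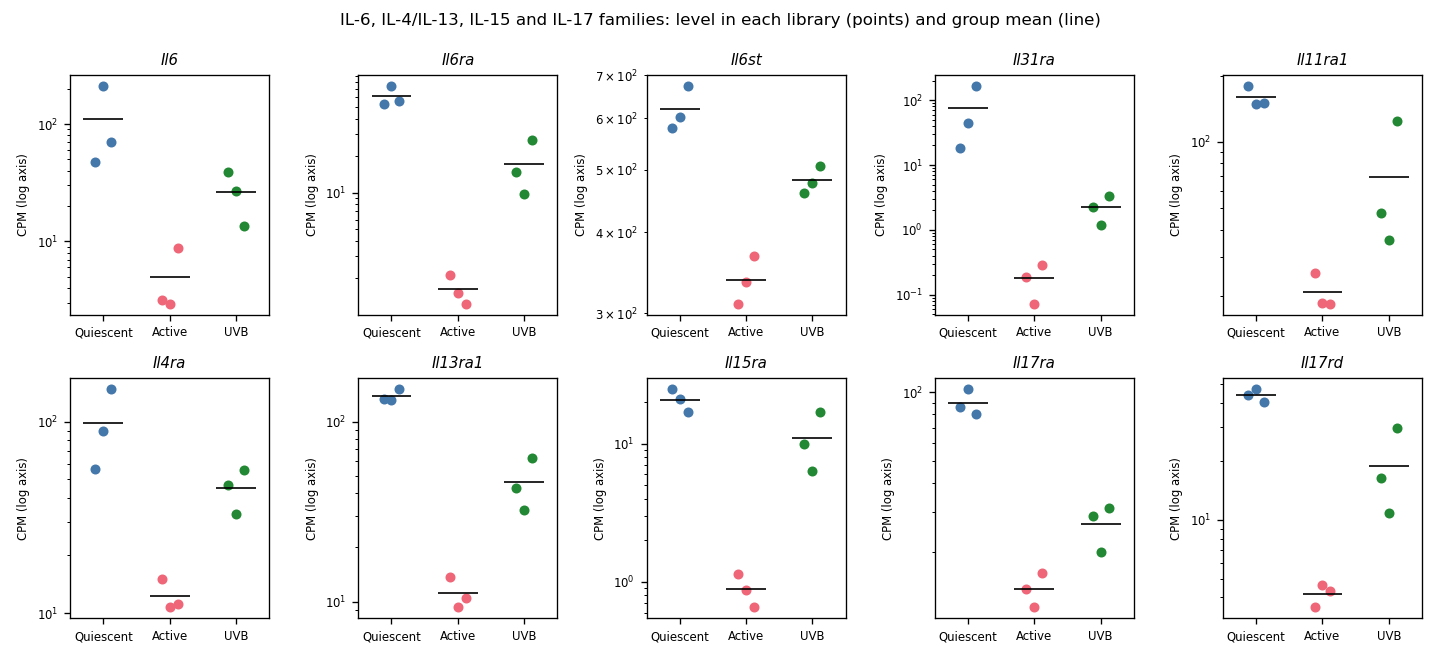
Level of 10 genes of the IL-6, IL-4 and IL-13, IL-15 and IL-17 families (vertical axes, CPM on a log scale) in each library (points) of the 3 groups, with the group mean as a line. Active holds the lowest 3 libraries in each panel, and Quiescent the highest 3 in every panel but that of Il15ra, where the lowest Quiescent and the highest UVB library both read 16.9 CPM.

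The receptor chains that mark lymphocytes and other leukocytes had another pattern, with the highest levels in UVB and, in part, in Quiescent replicate 2. Il2rb, the chain shared by IL-2 and IL-15, was at 0.782, 2.21 and 0.650 CPM in Quiescent, at 0.686, 0.508 and 0.368 CPM in Active, and at 9.90, 5.10 and 2.40 CPM in UVB. UVB lay above both other groups. Il2rb was 11.0-fold higher in UVB than in Active (log2 fold change 3.46, SE 0.66, edgeR adjusted p = 0.008), with a fold of 7.10 without UVB replicate 1. It was 4.81-fold higher in UVB than in Quiescent (edgeR adjusted p = 0.016). That call ended without Quiescent replicate 1 or UVB replicate 1 (edgeR adjusted p = 0.057 and 0.067), and the fold was 8.01 without Quiescent replicate 2 and 3.11 without UVB replicate 1.

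Il2rg, the common gamma chain, was at 5.59, 14.0 and 3.25 CPM in Quiescent, at 8.10, 4.21 and 3.39 CPM in Active, and at 18.8, 13.9 and 18.8 CPM in UVB. UVB lay above Active, while Quiescent replicate 2 reached the UVB range. Il2rg was 3.27-fold higher in UVB than in Active (log2 fold change 1.71, SE 0.52, edgeR adjusted p = 0.044). This call ended without Quiescent replicate 1, Active replicate 2 or 3 or any 1 UVB library (edgeR adjusted p from 0.055 to 0.145) and with library size alone (adjusted p = 0.057). With the replicate block Il2rg was called in no comparison. Il10ra, the IL-10 binding chain of leukocytes, was at 3.25, 23.2 and 1.42 CPM in Quiescent, at 2.09, 1.20 and 1.19 CPM in Active, and at 22.7, 15.9 and 33.0 CPM in UVB. Quiescent replicate 2 again lay within the UVB range. Il10ra was 15.9-fold higher in UVB than in Active (log2 fold change 3.99, SE 0.94, edgeR adjusted p = 0.019), a call that ended without any 1 Active library (adjusted p from 0.056 to 0.078). It was 6.14-fold lower in Active than in Quiescent (edgeR adjusted p = 0.034). This call ended without Quiescent replicate 2, where the fold was 1.58, and without any 1 Active library (edgeR adjusted p from 0.062 to 0.264). It also ended with library size alone, limma, a fit of only the 2 groups or the replicate block (adjusted p from 0.062 to 0.165). Without Quiescent replicate 2, Il10ra was called higher in UVB than in Quiescent (edgeR adjusted p = 0.001), as was Il7r, the IL-7 receptor (adjusted p = 9.8e-04). With all libraries edgeR called Il7r in no comparison (adjusted p = 0.090 in UVB against Quiescent and 0.053 in UVB against Active), whereas DESeq2 called it higher in UVB in both (adjusted p = 0.039 and 0.004), as did limma with either pseudocount (adjusted p from 0.008 to 0.028). Against Quiescent it was also called with library size alone (adjusted p = 0.033), and against Active in a fit of only the 2 groups (adjusted p = 0.006) and without any 1 Quiescent library (adjusted p from 0.004 to 0.037).

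Several further genes of lymphocyte and IL-12 signalling were low. Il2ra, the high-affinity chain for IL-2, had means of 0.826 CPM in Quiescent, 0.396 in Active and 2.45 in UVB, and was called higher than in Active (edgeR adjusted p = 0.011, kept without any 1 library) and than in Quiescent (adjusted p = 0.035). The latter call ended without Quiescent replicate 2 or 3, Active replicate 3 or UVB replicate 1 or 2 (edgeR adjusted p from 0.052 to 0.092). Il21r, the IL-21 receptor, was 12.5-fold higher in UVB than in Quiescent (edgeR adjusted p = 0.003; 21.4-fold without Quiescent replicate 2) at a UVB mean of 1.54 CPM, and 7.40-fold higher than in Active (adjusted p = 0.014), where the call ended without Active replicate 1 or 2 or UVB replicate 1 (adjusted p from 0.051 to 0.071). Il27ra, the IL-27 receptor, was 3.22-fold higher in UVB than in Active (edgeR adjusted p = 0.007). In Active it was called lower than in Quiescent (edgeR adjusted p = 0.034), a call that ended with library size alone (adjusted p = 0.688) and without Quiescent replicate 1 or 3, UVB replicate 1 or 2 or any 1 Active library (adjusted p from 0.051 to 0.115). Il12rb1, a chain of the IL-12 and IL-23 receptors, was called higher than in Quiescent in both other groups, with 4 fragments over all Quiescent libraries, 167 over Active and 115 over UVB, and the difference between UVB and Active was not called (edgeR adjusted p = 0.409). Il9r, the IL-9 receptor, had 1, 7 and 49 fragments over Quiescent, Active and UVB and was called higher in UVB than in either group. The call against Active (edgeR adjusted p = 0.023) ended without any 1 Active or UVB library (adjusted p from 0.052 to 0.098). Il12b, which encodes the shared subunit of IL-12 and IL-23, had 9, 2 and 150 fragments, with 105 of them in UVB replicate 1, and was called higher in UVB than in Active (edgeR adjusted p = 0.034). That call ended without any 1 Active library or UVB replicate 2 (edgeR adjusted p from 0.052 to 0.114) and by limma on log2(FPKM + 1) (adjusted p = 0.063).

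Il4i1 encodes a secreted amino acid oxidase of myeloid cells that IL-4 induces, and is not a cytokine. It was at 0, 0.417 and 0 CPM in Quiescent, at 0, 0.363 and 0.409 CPM in Active, and at 9.71, 5.14 and 6.58 CPM in UVB. The UVB libraries were above all others. Il4i1 was 28.1-fold higher in UVB than in Active (log2 fold change 4.82, SE 1.13, edgeR adjusted p = 0.018), a call that ended without Active replicate 2 or UVB replicate 1 (adjusted p = 0.065 and 0.058), with a fold of 18.3 without Active replicate 1. It was 54.9-fold higher in UVB than in Quiescent (edgeR adjusted p = 0.005), with a fold of 33.6 without Quiescent replicate 1. Its 7 Quiescent fragments were all in replicate 2, so without that library the group was at 0, and its exons overlap those of Nup62 on the same strand. Some of its estimated counts were not whole, and whether fragments were shared between these genes was not tested.

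The markers of several other cell types also differed between the groups. For the counts that follow, 14.8% of all tested genes were called higher in UVB than in Active. The 3 leukocyte markers (Ptprc, Coro1a and Laptm5) were all called higher in UVB than in Active, with sums of 181 to 307 CPM in UVB and 8.50 to 19.7 CPM in Active. The same held for 7 of the 9 tested macrophage and dendritic cell markers, 7 of the 9 tested T cell and innate lymphoid markers and 7 of the 7 tested mast cell markers, but for 1 of the 3 tested neutrophil markers and 0 of the 1 tested B cell marker by edgeR, which also had an unadjusted p under 0.05 for 1 and 0 of them. T cell and innate lymphoid markers summed to 361 to 516 CPM in Quiescent, 32.3 to 40.6 in Active and 221 to 343 in UVB, a list that holds Thy1, which fibroblasts also express. Thy1 alone had means of 428, 23.1 and 261 CPM in these groups and so made most of the sums. Of the 9 tested, 5 (Cd3e, Cd3g, Cd3d, Cd8a and Lck) were called higher in UVB than in Quiescent and 2 (Rora and Thy1) lower. Of all tested genes, 25.8% and 23.2% were called in these directions, so that the 2 lower were near the background. Fibroblast markers, given above, were highest in Quiescent, intermediate in UVB and lowest in Active, the same order as Il1r1, Il1r2, Il1rl2, Il6ra, Il13ra1 and Il17ra. The 6 endothelial markers had this order too, with sums of 306 to 414 CPM in Quiescent, 121 to 228 in UVB and 21.1 to 27.0 in Active. All 6 were called lower in Active than in Quiescent and higher in UVB than in Active, beside 29.2% and 14.8% of all tested genes. The 8 keratinocyte markers summed to 2082, 589 and 125 CPM in Quiescent replicates 1, 2 and 3. They summed to 797 to 1260 CPM in Active and 275 to 688 in UVB. The 5 muscle markers summed to 694 to 955 CPM in Quiescent, 73.2 to 117 in Active and 102 to 231 in UVB. All 5 were called lower in Active than in Quiescent, beside 29.2% of all tested genes. The part of these cell types in the interleukin gene results was not tested.

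**Figure D5:**
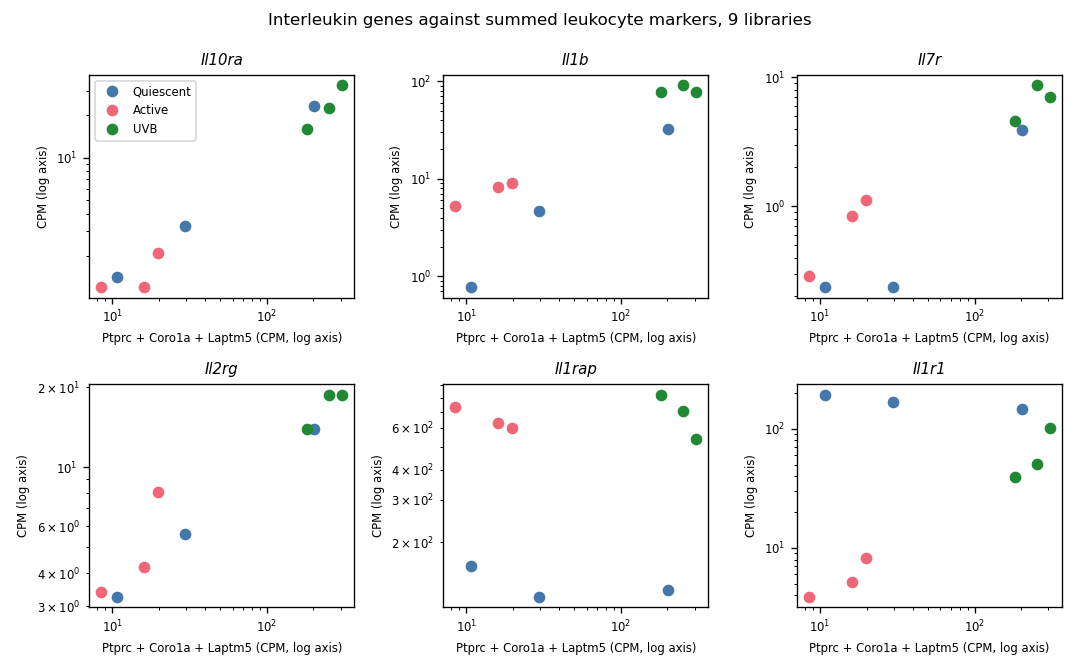
Level of 6 genes (vertical axes, CPM on a log scale) against the summed level of the leukocyte markers Ptprc, Coro1a and Laptm5 (horizontal axes, CPM on a log scale) in the 9 libraries, coloured by group. For Il10ra, Il1b, Il7r and Il2rg the Quiescent library with 203 CPM of these markers has the highest level of its group, which it has not for Il1rap and Il1r1.

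The genes through which interleukins signal were taken from a list of 56 genes outside the naming rule, all of which were tested. Of these, Active had 4 above and 24 below Quiescent, 12 were higher and 11 lower in UVB than in Quiescent, and 23 were higher and 0 lower by edgeR in UVB than in Active, against the backgrounds given above. At an unadjusted p under 0.05 edgeR had 29 higher and 2 lower in UVB against Active. The median log2 fold change of the 56 was -0.53, 0.09 and 0.52 in these comparisons.

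Among shared chains and cytokines related to interleukins, 6 of 15 were lower in Active than in Quiescent and 9 of 15 were higher in UVB than in Active. Of all tested genes, 29.2% and 14.8% were called in these directions. Osmr, the partner of Il31ra, was at 45.9, 48.3 and 48.7 CPM in Quiescent, at 9.54, 5.55 and 5.89 CPM in Active, and at 33.9, 19.2 and 54.7 CPM in UVB. It was 6.79-fold lower in Active than in Quiescent (edgeR adjusted p = 2.6e-04). Osm, its ligand oncostatin M, was at 0.472 to 1.43 CPM in Quiescent, 0.613 to 0.810 CPM in Active and 6.99 to 17.4 CPM in UVB, 16.7-fold above Active (edgeR adjusted p = 0.001). The beta chains Csf2rb and Csf2rb2 were both lower in Active than in Quiescent and higher in UVB than in Active.

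Of the 11 JAK kinases and STAT factors 7 were lower in Active than in Quiescent, beside 29.2% of all tested genes. Their folds ran from 1.37 (Jak2) to 2.61 (Stat2). In this list, calls with library size alone are given only for Jak1, Stat6 and Stat3. Jak1 was 1.84-fold lower (edgeR adjusted p = 5.9e-04) and Stat6, the factor downstream of IL-4 and IL-13, 2.11-fold lower (adjusted p = 3.0e-04), and both were also lower in UVB than in Quiescent. With library size alone the Active calls ended (adjusted p = 0.337 and 0.088), as did those in UVB (adjusted p = 0.294 and 0.707). Stat3, the factor downstream of gp130, was called in no comparison with TMM scaling, but higher than Quiescent with library size alone in Active (adjusted p = 0.002) and UVB (adjusted p = 7.3e-04). Among 10 feedback inhibitors Socs1 was 16.2-fold lower in Active (edgeR adjusted p = 5.8e-05) and 5.09-fold lower in UVB (adjusted p = 0.001) than in Quiescent. Socs3 was called in no comparison, at 117 to 408 CPM over all libraries, although without Active replicate 3 it was called lower in Active than in Quiescent (edgeR adjusted p = 0.037) and higher in UVB than in Active (adjusted p = 0.025).

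Of the 12 adaptors of IL-1 and IL-17 receptors 5 were lower in Active than in Quiescent and 2 higher, beside 29.2% and 29.1% of all tested genes. Irak3, an inhibitory relative of the IRAK kinases, was at 67.6, 85.9 and 93.4 CPM in Quiescent, at 2.84, 1.45 and 1.59 CPM in Active, and at 9.14, 5.62 and 18.0 CPM in UVB, 41.5-fold lower in Active (log2 fold change -5.38, SE 0.48, edgeR adjusted p = 2.9e-05). Myd88 was 2.42-fold lower in Active (edgeR adjusted p = 5.4e-04). Of the 8 genes that process IL-1 family cytokines 4 were lower in Active than in Quiescent and 4 higher in UVB than in Active. The shares of all tested genes were 29.2% and 14.8%. Casp1, which encodes the enzyme that cleaves IL-1 beta and IL-18, was at 103, 75.6 and 180 CPM in Quiescent, at 10.2, 8.49 and 7.28 CPM in Active, and at 16.0, 8.97 and 30.6 CPM in UVB, 13.8-fold lower in Active (edgeR adjusted p = 2.1e-04). Nlrp3, the sensor that activates it, was by contrast highest in UVB, at 9.59 to 21.2 CPM against at most 2.26 CPM in any other library (21.8-fold above Active, edgeR adjusted p = 0.004).

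By level per length, the order of the 82 genes differed between groups. In Quiescent the first 5 were Il1r2 (581 FPKM), Il6 (119), Il6st (113), Il11ra1 (98.2) and Il1rl2 (65.5 FPKM), where Il6 ranged from 51.4 to 228 FPKM and so cannot be ordered against its neighbours. In Active they were Il1rap (147 FPKM), Il6st (61.6), Il10rb (36.8), Il3ra (21.7) and Il17rc (18.0 FPKM), all receptor chains. In UVB they were Il1rap (153 FPKM), Il6st (86.8), Il1b (69.5), Il11ra1 (41.6) and Il1r2 (40.3 FPKM), the last 2 with ranges of 22.2 to 73.9 and 14.0 to 76.1 FPKM that overlap. In all, edgeR called 43 of the 58 tested genes in at least 1 comparison and 15 in none, where 69.5% of all tested genes were called in at least 1. DESeq2 called 46 of the 58, beside 48.7% of all 23361 genes in the table. That share includes genes with low counts that the edgeR filter left out, so it is not a like background.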

How the data were processed

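Gene expression was read from 9 libraries, made per the labels' protocols from poly(A)-selected RNA with a kit that is directional. As tools, the submitters' processing notes give cutadapt 1.8, TopHat2 2.0.13, Cuffdiff 2.2.1 and the build mm10; annotation, options and strandedness of counting: not given in the sources used here. Hence overlapping genes on opposite strands may share fragments. The deposited table holds, per the file headers, the authors' estimated counts (fragments per gene before scaling) and the authors' FPKM, which are scaled by length and library. Estimated counts were rounded, and among the genes described 1, Il4i1, had values that were not whole.

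Counts were tested with edgeR 4.0.16 in R 4.3.3 (filterByExpr, TMM factors, quasi-likelihood F test, 1 fit of all 9 libraries), with p-values adjusted by Benjamini-Hochberg across the 15078 genes that passed the filter and a two-sided threshold of 0.05. Called means past that threshold. CPM are counts divided by the TMM-scaled library total, times 1e+06, and the standard error is that of the log2 fold change. Genes at 0 in a group were given a limit of 3 fragments over the group, which covers counting error only, since PCR copies are not independent molecules. The mean of the other group was used as measured, so these folds are not lower bounds. Alternatives were library size alone, other scaling factors, DESeq2 1.42.0, limma 3.58.1 on log2(FPKM) with 1 or 0.1 added, testing without a filter, a filter of 50 counts, fits of 2 groups, a replicate block, and each library left out. The fits were tested on simulated data. Promoters and positions came from RefSeq (GRCm38.p6) and exon overlaps from GENCODE.

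Genes given in full had a mean of at least 5 CPM in a group and a call in any comparison, 27 in all; Il1a was added to make 28. The members and lists were chosen with earlier results of these data known, so their counts are descriptions. Further members and the signalling genes named were chosen after their values were seen. The names are as in the table. RefSeq lists Il8 as a synonym of Cxcl15, and older symbols such as Il1f6 were kept.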

Additional observations from a re-analysis of the deposited data

How the results depend on the processing

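Over the 27 tested of the 28 genes given in full and 3 comparisons, 1535 values were recomputed under an alternative. With 1 library left out 641 kept their direction and side of the threshold, 78 lost and 5 gained a call and 5 turned; under the other settings these numbers were 759, 30, 11 and 6. For Il1b in Active against Quiescent the log2 fold change turned to 0.23 and 0.52 by limma on log2(FPKM + 1) and log2(FPKM + 0.1) and to 1.42 without Quiescent replicate 2 (from -1.28 to 1.42 with each library left out). With library size alone it turned to 0.19 for Il2rg and 0.39 for Il33 in Active against Quiescent, and to 0.33 for Il16 and 0.36 for Il6st in UVB against Quiescent. With each library left out it ran from -0.99 to 0.24 (Il2rg, Active against Quiescent), turning without Quiescent replicate 2, and from -0.69 to 0.08 for Il33, turning without Quiescent replicate 1. In UVB against Active it ran from -0.37 to 0.13 for Il17d, turning without Active replicate 3, and from -0.08 to 0.22 for Il1rap, turning without UVB replicate 2. Of these only Il6st was called in both settings. Except where scaling or the number of libraries is what changed, the cause was not tested.

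With a filter of 50 counts, which leaves fewer genes, 37 of the genes described were tested. Of these, 2 were higher in Active and 9 in UVB than in Quiescent, beside 30.7% and 27.3% of all genes so tested. With library size alone 27 were higher and 8 lower in UVB than in Quiescent, beside 58.0% and 8.26% of all tested genes. By DESeq2, by limma with either pseudocount and in a fit of 2 groups, 1 gene was lower in UVB than in Active. With each library left out in turn, Active had 6 to 8 genes above and 24 to 27 below Quiescent, and the UVB counts were 10 to 20 higher and 11 to 18 lower in UVB than in Quiescent, and 15 to 33 higher and 0 to 1 lower in UVB than in Active. The shares of all tested genes were 25.0% to 29.0% and 23.9% to 29.3%, 21.0% to 25.2% and 17.6% to 24.3%, and 6.50% to 16.6% and 2.95% to 10.9%. Calls kept without any 1 library numbered 6 higher and 23 lower, 9 higher and 10 lower, and 14 higher in the 3 comparisons. The share of all tested genes so kept was not computed.

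Whether replicate numbers pair the libraries was not settled. Deviations of same-numbered libraries correlated at 0.065 to 0.231 between Active and Quiescent, -0.171 to 0.218 between UVB and Quiescent, and -0.117 to 0.084 between UVB and Active. These values were not set against those of differently numbered libraries, so they cannot decide it. With the replicate block Active had 6 genes above and 25 below Quiescent, and there were 14 higher and 15 lower in UVB than in Quiescent, and 25 higher and 0 lower in UVB than in Active. Of all tested genes the block fit called 27.4% and 27.1%, 23.7% and 21.4%, and 12.1% and 6.66% in these directions. Depth limits the 24 genes that the filter left out: without it edgeR tested 22 of them and called 2, 3 and 0 in the 3 comparisons in the order above (4, 3 and 5 at an unadjusted p under 0.05), and DESeq2 gave an adjusted p for 14, 14 and 7 and called 2, 3 and 1. Without a filter edgeR called 22.9% and 22.8%, 19.9% and 17.1%, and 10.9% and 6.21% of all genes higher and lower. DESeq2 called 19.4% and 20.8%, 17.0% and 17.1%, and 11.5% and 8.24% of all 23361 genes, including those without an adjusted p.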
